A study of Arabidopsis thaliana with 14 samples.

Results

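The genes described here are 8 Arabidopsis genes of late pollen development and pollen tube growth: AGP6 (probe set AT5G14380_at), AGP11 (AT3G01700_at), BCP1 (AT1G24520_at), STP11 (AT5G23270_at), ANX1 (AT3G04690_at), ANX2 (AT5G28680_at), PRK2 (AT2G07040_at) and TUA1 (AT1G64740_at). Each probe set identifier holds the locus of its gene. They were chosen by name because their values were high in arrested inflorescences and declined after fruits were removed, so their differences from arrested inflorescences are given as a description with no test. All 8 were measured, among 21195 loci in all. The series compared sterile growing, fertile growing and fertile arrested plants with arrested plants that had lost their fruits, on 14 Affymetrix arrays, 10 for whole inflorescences and 4 for shoot apices cut out by laser. Among whole inflorescences, sterile growing plants carried the label ms1-1 homozygous (1 array) and fertile growing plants the label ms1-1 co-segregant (1 array). Fertile arrested plants (2 arrays) and fertile plants that had arrested and then lost fruits 6 h, 24 h or 48 h before collection (2 arrays per time) were also labelled ms1-1 co-segregant. The protocol instead names Landsberg erecta for that time course. It states that 3 to 4 fruits were left on the plants, while the series text speaks of removing every fruit. Shoot apices had 1 array each for sterile growing, fertile growing, arrested and 48 h fruit removal plants. Inflorescences were pooled from 3 to 10 plants and held flowers up to about floral stage 10, and each apex sample came from at least 20 plants.

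Pollen grains form inside the anther, where the tapetum, the innermost anther layer, feeds the developing microspores and supplies the grain wall. Late in development the vegetative cell of the grain stores transcripts for wall proteins, sugar uptake, surface receptors and the cytoskeleton, which the tube uses when it grows through the pistil. MS1 encodes a factor of the tapetum, and ms1 mutants make no viable pollen and therefore no selfed seed. The deposited values hold no entry for MS1 itself, so the genotype label could not be checked by that gene.

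Values are the deposited log2 values, on which a difference of 1 is a 2-fold change. Array medians lay between 7.27 and 7.45 for inflorescences and between 7.43 and 7.49 for apices. The arrested pair was the least alike of the replicate pairs (r = 0.947 over all loci, against 0.991 at 6 h, 0.982 at 24 h and 0.975 at 48 h). Sample titles carry a code, r or g, which the labels do not explain. Both growing arrays and arrested replicate 1 were coded r, and arrested replicate 2 and every fruit removal array were coded g. The labels do not say whether replicate arrays came from independent plants, so p-values measure only the spread between these pooled samples. Tissue labels matched their markers by list means. The mean of 9 shoot meristem genes was 9.36 to 9.65 in apices and 6.89 to 7.62 in inflorescences. That of 8 floral genes was 6.80 to 7.11 in apices and 9.70 to 10.49 in inflorescences. Single genes did not all follow. KNAT1 (8.41 to 9.37 in apices) and CUC2 (6.52 to 7.25) lay within their inflorescence ranges, and WUS and CLV1 overlapped between tissues. The floral gene LFY was higher in every apex array (8.68 to 9.45) than in any inflorescence array. The other listed genes kept the direction of their list in every array. Apex RNA was amplified before labelling, so levels in the 2 tissues are not directly comparable. Of 6 measured pollen vegetative cell markers, 5 (PRK1, PRK4, ACT4, ADF7 and CNGC18) had both arrested arrays above every other inflorescence array (13.8% of all loci), and ACT12 did not. Of the 5, PRK1 (6.76 and 6.99) and CNGC18 (5.51 and 5.77) lay below the medians of the arrested arrays. CNGC18 was no lower in apices, at 5.57 to 6.24.

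Every one of the 8 genes had both arrested arrays above all other inflorescence arrays, a pattern that 13.8% of all loci shared and that the choice of genes used. By group means the decline after fruit removal did not go stepwise, though the step from 6 h to 24 h was not tested. No gene (0 of 8) had group means that fell in the order arrested, 6 h, 24 h and 48 h, an order found in 9.34% of loci. Instead all 8 had a 24 h mean above the 6 h mean, as did 67.5% of loci, by 0.17 for BCP1 to 0.46 for AGP11 beside a median over all loci of 0.15. Both 24 h arrays lay above both 6 h arrays in 5 of 8 genes (40.6% of loci), and overlapped with them for BCP1, STP11 and ANX2. The 24 h excess kept its sign in all 8 genes after quantile normalization, where PRK2 was lowest at 0.05, and after median centring, where BCP1 was lowest at 0.10. It did not hold for each array: ANX2 at 24 h replicate 2, 5.71, lay below its 6 h mean of 5.89. Both 6 h arrays lay below both arrested arrays in 8 of 8 genes (36.2% of loci), and both 48 h arrays below both 24 h arrays in 8 of 8 (24.5% of loci). In bulk tissue such as this, fewer cells of a type and less RNA per cell cannot be told apart.

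AGP6 and AGP11 encode arabinogalactan proteins, heavily glycosylated proteins of the cell surface that pollen grains and tubes need for normal development. AGP6 was 5.31 in sterile growing and 8.84 in fertile growing inflorescences, while its arrested arrays read 11.99 and 12.39. After fruit removal it read 9.75 and 10.08 at 6 h, 10.40 and 10.23 at 24 h, and 9.72 and 7.70 at 48 h. The arrested arrays were thus the highest, the sterile growing array the lowest, and the 48 h replicates were 2.02 apart, so that replicate 1 lay just below the 6 h pair and replicate 2 below the fertile growing array. AGP11 was 4.80 in sterile growing and 6.62 in fertile growing inflorescences, and 10.77 and 11.44 in arrested ones. At 6 h it was 8.71 and 9.10, at 24 h 9.54 and 9.18, and at 48 h 7.82 and 6.60. Its order of groups was that of AGP6 except that the 48 h mean of 7.21 ± 0.86 (SD, n = 2) lay above the fertile growing array, and the 48 h replicates again differed, by 1.22. AGP6 and AGP11 were the only 2 of the 8 genes with 48 h replicate 1 at least 1 above replicate 2, a gap seen in 1.55% of all loci, and 7 of 8 genes, all but TUA1, had replicate 1 above replicate 2 (34.5% of loci).

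BCP1, an arabinogalactan-like protein first known from Brassica pollen, had the widest gap to fertile growing inflorescences. It was 6.86 in sterile growing, 7.41 in fertile growing, and 12.55 and 13.01 in arrested inflorescences. It was 10.66 and 10.89 at 6 h, 10.83 and 11.05 at 24 h, and 9.71 and 8.82 at 48 h. The 48 h arrays were the lowest of the time course, yet the 48 h mean remained 1.86 above the fertile growing array, the largest such gap among the 8 genes, whereas AGP6 at 48 h was 0.13 below it. The mean difference of fertile growing from arrested was -5.37 for BCP1, -4.49 for AGP11 and -3.35 for AGP6.

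STP11 encodes a proton-coupled monosaccharide transporter of the pollen tube. It was 5.06 in sterile growing, 5.17 in fertile growing, and 9.23 and 9.74 in arrested inflorescences. At 6 h it was 7.17 and 7.60, at 24 h 7.83 and 7.59, and at 48 h 5.76 and 5.63. Its 6 h and 24 h arrays overlapped, its 48 h replicates lay 0.13 apart, and both 48 h arrays were within 1 of both growing arrays. The 48 h difference from arrested was -3.79, next to -3.90 for AGP11, -3.52 for BCP1 and -3.48 for AGP6.

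ANX1 and ANX2 encode a pair of closely related receptor kinases of the CrRLK1L family that keep the growing pollen tube from bursting. ANX2 was 5.02 in sterile growing, 4.66 in fertile growing, and 7.83 and 8.33 in arrested inflorescences. It was 5.75 and 6.03 at 6 h, 6.67 and 5.71 at 24 h, and 5.41 and 4.78 at 48 h. Its 24 h replicates lay on either side of the 6 h pair, so the 24 h mean of 6.19 ± 0.68 (SD, n = 2) did not stand apart from the 6 h mean of 5.89 ± 0.20. ANX1 had lower and closer values throughout: 5.24 in sterile growing and 5.19 in fertile growing inflorescences, and 6.71 and 7.0 in arrested ones. It was 5.41 and 5.69 at 6 h, 5.81 and 5.90 at 24 h, and 5.59 and 5.27 at 48 h. ANX1 was the only 1 of the 8 genes whose 48 h arrays overlapped with its 6 h arrays (25.8% of loci had both 48 h arrays below both 6 h arrays), and the only 1 that never exceeded the median of its array, arrested arrays included. Whether probes of these close copies share signal was not tested.

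PRK2 encodes a receptor kinase of pollen that binds activators of ROP GTPases, the switches of tip growth, and it had the smallest differences of the 8. It was 6.54 in sterile growing, 6.10 in fertile growing, and 7.19 and 7.38 in arrested inflorescences. At 6 h it was 6.51 and 6.39, at 24 h 6.66 and 6.64, and at 48 h 6.26 and 6.11. The arrested pair was highest, and the sterile growing array lay above both 6 h arrays, unlike in the other 7 genes. The PRK2 differences from arrested were -0.84 at 6 h, -0.64 at 24 h and -1.10 at 48 h.

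TUA1 encodes an alpha tubulin used mainly in pollen, a building block of microtubules. It was 7.49 in sterile growing, 8.51 in fertile growing, and 9.60 and 10.59 in arrested inflorescences. It was 8.73 and 8.81 at 6 h, 8.86 and 9.07 at 24 h, and 8.48 and 8.60 at 48 h. The fruit removal groups lay close together and the 48 h mean was 0.03 above the fertile growing array. Its arrested replicates were 0.99 apart, the widest arrested gap of the 8, and arrested replicate 2 exceeded replicate 1 in all 8 genes (54.3% of loci).

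**Figure D1:**
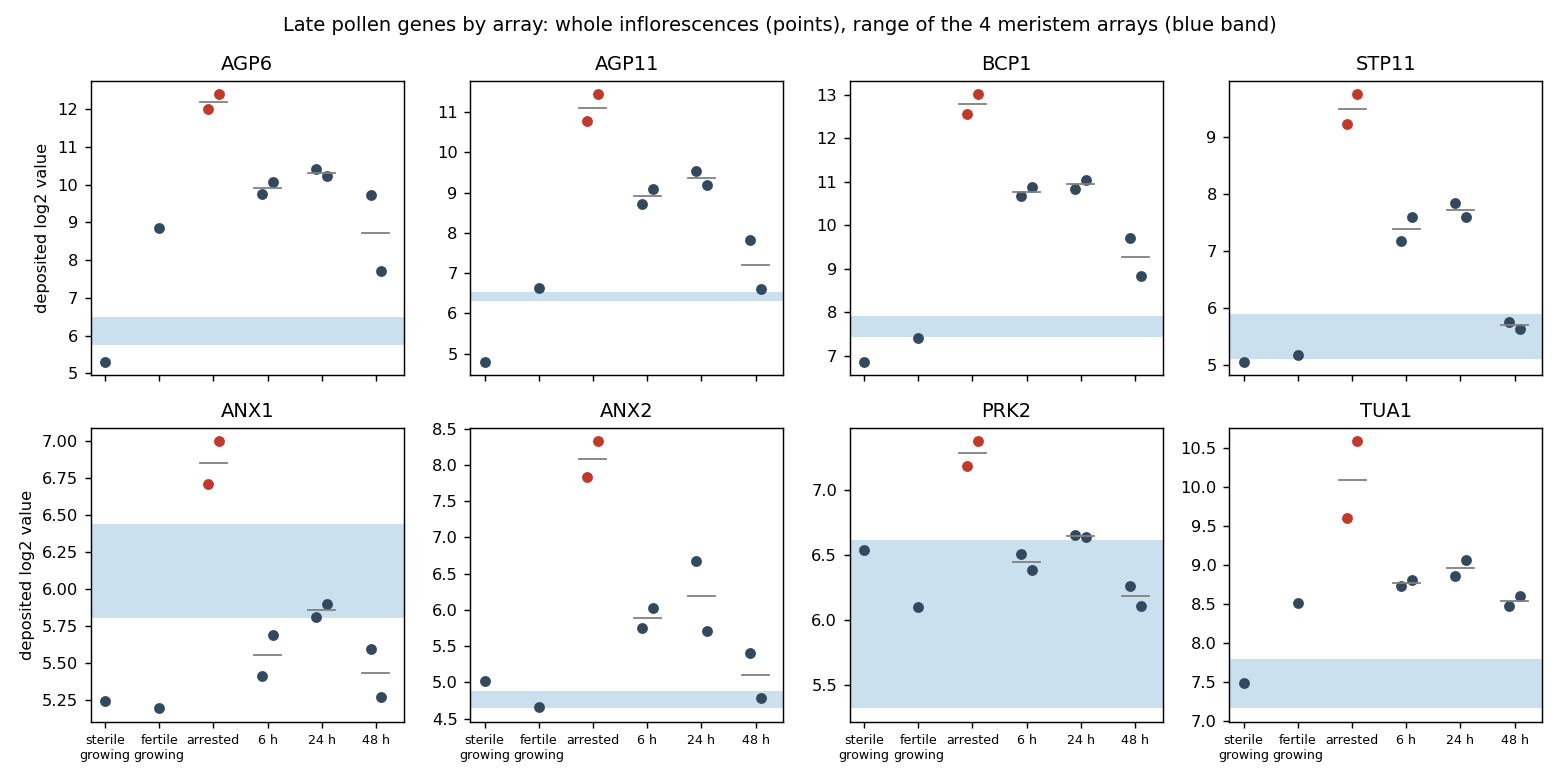
Deposited log2 value (vertical axis, own scale per gene) of the 8 late pollen genes on each whole-inflorescence array by group, with arrested arrays in red, group means of replicated groups as grey lines and the range of the 4 apex arrays as a blue band. Both arrested arrays stand above every other inflorescence array in all 8 genes, and the 24 h mean lies above the 6 h mean in each.

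Across the 8 genes, the median difference from arrested was -2.05 at 6 h, -1.76 at 24 h and -3.23 at 48 h, while the median over all loci was -0.09, 0.08 and -0.02. In fertile growing inflorescences it was -3.39 (all loci -0.07), and in sterile growing inflorescences -3.74 (all loci 0.20). The genes were chosen for these differences, so none was tested. All of these comparisons share the arrested arrays. Each gene lay below arrested replicate 1 in both growing arrays, which share its r code, and below arrested replicate 2 in all 6 fruit removal arrays, which share its g code. That follows from the pattern used in the choice of genes, so it is no separate check on the title code.

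The difference between sterile and fertile growing inflorescences was not used in the choice, and it was tested over all loci with limma, which took the spread from the replicate pairs because each growing group had 1 array. No gene of the 8 passed (0 of 8), where 0.67% of loci did (0.156% higher and 0.514% lower in sterile growing). Sterile growing AGP6 was 3.53 ± 0.78 (SE) below fertile growing AGP6, with a 95% interval of -5.35 to -1.71 and a limma adjusted p of 0.11. The adjusted p of AGP6 ranged between 0.0072 and 0.22 over the alternatives tried, and passed only when either 48 h array was left out. For AGP11 the difference was -1.82 ± 0.58 (limma adjusted p = 0.19), and for TUA1 -1.02 ± 0.43 (limma adjusted p = 0.26). The remaining 5 genes differed by less: BCP1 by -0.55, with an interval of -1.56 to 0.46, and STP11 by -0.11, with an interval of -0.90 to 0.68. ANX2 differed by 0.36 (interval -0.83 to 1.55) and PRK2 by 0.44 (interval -0.11 to 0.99). ANX1 differed by 0.05 (interval -0.62 to 0.72), which became -0.21 after quantile normalization and -0.08 after median centring. The median of all loci in this comparison was 0.25, so the negative differences are slightly larger against the bulk of the arrays.

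**Figure D2:**
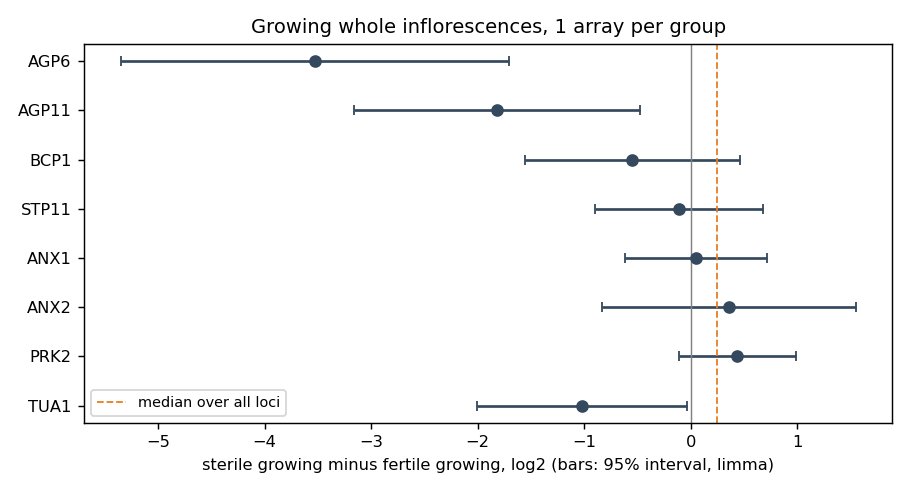
Difference of sterile growing minus fertile growing inflorescences (horizontal axis, log2) for the 8 genes, with 95% intervals from limma as bars and the median over all loci as a dashed line. The intervals of AGP6, AGP11 and TUA1 lie below 0, although no adjusted p passed, and the other 5 intervals span 0.

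In dissected shoot apices the high arrested values of the 8 genes were not seen. All 4 apex arrays lay below both arrested inflorescence arrays in 8 of 8 genes (21.2% of loci). The genes were chosen for high arrested inflorescence values, so this count is largely set by the choice. Apex RNA was also amplified before labelling, so levels in the 2 tissues are not directly comparable. AGP6 was 6.48 in sterile growing, 6.31 in fertile growing, 6.39 in 48 h fruit removal and 5.74 in arrested apices. BCP1 was 7.90 in sterile growing, 7.59 in fertile growing, 7.59 in fruit removal and 7.43 in arrested apices. The arrested apex was the highest of the 4 only for TUA1 (31.6% of loci), at 7.79, and the lowest for 4 of 8 genes (41.8% of loci). PRK2 had the widest apex range, 1.30, with 5.32 in the arrested apex and 6.52, 6.47 and 6.62 in the sterile growing, fertile growing and fruit removal apices. The other apex ranges were 0.23 for AGP11 to 0.79 for STP11. Each apex group had 1 array, so no test was made.

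The 8 profiles resembled each other over the 10 inflorescence arrays. Pearson correlations between pairs were 0.65 for AGP6 and PRK2 at the lowest and 0.98 for AGP11 and BCP1 at the highest. The points share their arrays and, through the choice of genes, the high arrested values. Among 3571 other annotated loci with a range of at least 2 over these arrays, 329 had a correlation of at least 0.9 with the mean profile of the 8 genes and 142 of at least 0.95. The 10 most alike were AT2G27180 (0.993), AT3G62180 (0.992), SGP2 (0.991), AT3G54800 (0.990), SFH12 (0.990), PLIM2a (0.990), FLA3 (0.988), LIP1 (AT5G16500, 0.988), AT1G03050 (0.988) and AT5G47000 (0.987). PLIM2a, a LIM-domain protein that bundles actin in pollen, showed the shape in full: 5.95 in sterile growing, 7.30 in fertile growing, 11.05 and 11.74 in arrested, 8.81 and 9.11 at 6 h, 9.50 and 9.35 at 24 h, and 7.60 and 7.18 at 48 h. Only 4 of the 10 were also among the 10 most alike over all 14 arrays, and 2 by Spearman correlation, so the order within this tight group depends on the measure.

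A wider list of 72 other pollen genes, of which 61 were used, shows how far the pattern reached. Both arrested arrays stood above all other inflorescence arrays in 37 of the 61 (13.8% of all loci), and 54 of 61 had the 24 h mean above the 6 h mean (67.5% of all loci). Relative to arrested, 32 of the 61 fell by limma (adjusted p under 0.05) at 6 h, where 13.1% of all loci fell, 27 at 24 h (11.5% of loci) and 33 at 48 h (13.9% of loci). At 6 h and at 24 h 0 rose, also at an unadjusted p under 0.05, and 1 rose at 48 h, where 8.7%, 10.5% and 12.5% of all loci rose at the 3 times. The count of falling genes was 13 at 6 h without 6 h replicate 1, 17 without 6 h replicate 2, 16 at 24 h without 24 h replicate 1 and 14 without 24 h replicate 2. In fertile growing inflorescences 27 fell and 3 rose, where 7.29% of loci fell and 6.02% rose. In sterile growing ones 32 fell and 1 rose, where 10.8% of loci fell and 15.6% rose. The list's median differences were -1.09 at 6 h, -0.97 at 24 h, -1.03 at 48 h, -1.06 in fertile growing and -1.15 in sterile growing inflorescences. These genes were listed with earlier results of these arrays known, so the list is not independent evidence of the direction.

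By role, 9 of 10 receptors, ligands and co-receptors of the tube fell at 48 h (all but PRK3), a time at which 13.9% of all loci fell, with LIP2, a membrane-anchored kinase for tube guidance, at -3.59 (limma adjusted p = 0.00025). In signalling, 9 of 13 fell at 48 h, among them the calcium-dependent kinases CPK24 at -3.59 ± 0.26 (limma adjusted p = 0.00024) and CPK17 at -3.11 ± 0.23 (limma adjusted p = 0.00025). CPK17 was 8.20 and 8.36 in arrested inflorescences and between 4.29 and 6.56 elsewhere. Of 5 wall genes, 3 fell at 48 h, with CSLD4, a cellulose synthase-like protein of the tube wall, at -2.17, while VGDH2 and AGP40 did not pass. All 5 wall genes fell in sterile growing inflorescences (10.8% of loci), as did 8 of the 10 receptors, ligands and co-receptors. Differences between roles were not tested. Cytoskeletal genes split, 4 of 12 falling at 48 h, with PLIM2a at -4.01 (limma adjusted p = 0.00021) and the pollen actin ACT4 at -2.62, while ACT12 was at 0.14 and did not pass. Of 11 channels, pumps and transporters 4 fell and 1 rose, and of 10 transcription factors 4 fell.

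**Figure D3:**
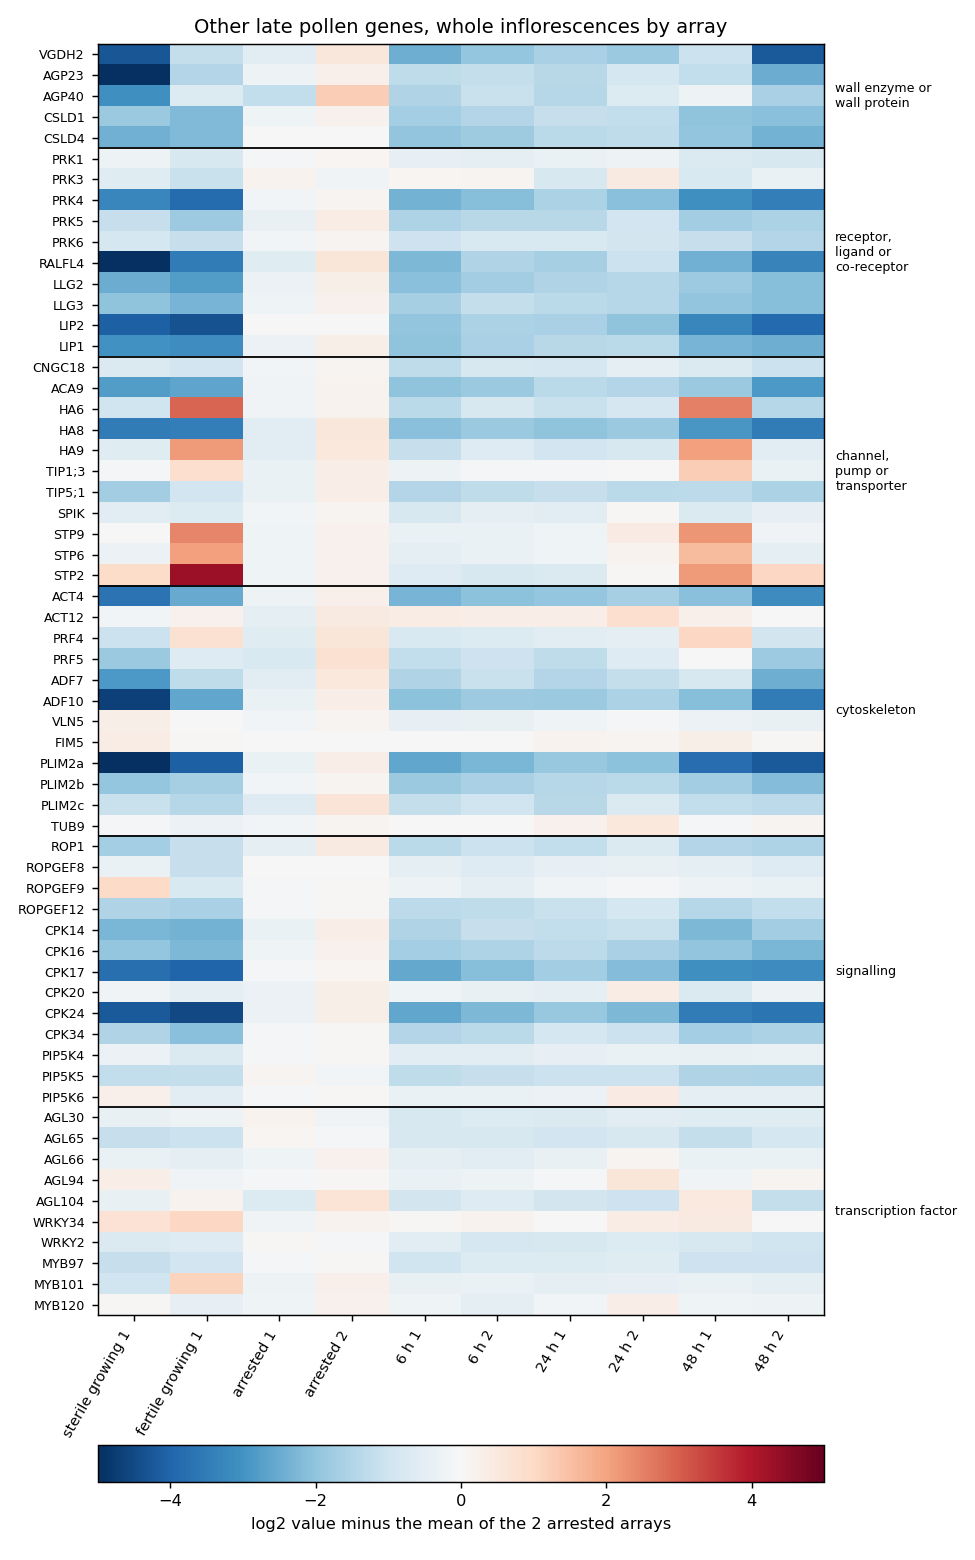
Log2 value minus the mean of the 2 arrested arrays (colour, blue lower and red higher) for the 61 other pollen genes (vertical, grouped by role) on the 10 inflorescence arrays (horizontal). Most receptors and signalling genes are blue outside the arrested arrays, while HA6, HA9, STP2, STP6 and STP9 are red in fertile growing and in 48 h replicate 1.

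Some genes of this list, described after their values were seen, did not share the order of the 8 genes. In 10 of 61 genes the fertile growing array exceeded both arrested arrays, a smaller share than the 32.0% of all loci, so this order is no feature of the list: HA6, HA9, TIP1;3, STP9, STP6, STP2, PRF4, FIM5, WRKY34 and MYB101. FIM5 met the rule by a small margin, at 7.53 in fertile growing and 7.47 and 7.48 in arrested inflorescences. HA6, a plasma membrane proton pump, was 5.40 in sterile growing and 9.31 in fertile growing inflorescences, and 6.22 and 6.60 in arrested ones. It was 8.91 and 4.99 at 48 h, so only replicate 1 resembled the fertile growing array, and its 48 h difference from arrested was 0.54 with both (limma adjusted p = 0.75). That difference was -1.42 without replicate 1 (limma adjusted p = 0.029) and 2.50 without replicate 2 (limma adjusted p = 0.0062), so no direction is drawn for HA6 at 48 h. STP9, a glucose transporter of pollen and a paralog of STP11, was 8.29 in fertile growing, 5.62 and 6.06 in arrested, and 8.03 and 5.66 at 48 h. STP2, a galactose transporter of early pollen development, rose by 4.28 ± 0.48 in fertile growing inflorescences (limma adjusted p = 0.0015) and by 1.58 ± 0.39 at 48 h (limma adjusted p = 0.023). The 48 h call of STP2 was lost with a block for the title code, where the difference was 1.37. For this contrast that block is the same fit as leaving out arrested replicate 1. The call was also lost without 48 h replicate 1, where the difference was 1.04. In contrast HA8, another proton pump of pollen, was 8.01 in fertile growing, 10.91 and 12.03 in arrested, and 8.55 and 7.99 at 48 h, as the 8 genes were. In the list, 16 of 61 genes had 48 h replicate 1 at least 1 above replicate 2 (1.55% of all loci), and AGP6 and AGP11 shared that split.

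Between sterile and fertile growing inflorescences, 3 of the 61 passed. AGP23, an arabinogalactan peptide of pollen, was 7.79 in sterile growing and 12.14 in fertile growing inflorescences, a fall of 4.35 on the log2 scale (limma adjusted p = 0.021). MYB101, a transcription factor of the tube, fell by 2.12 (limma adjusted p = 0.030). ROPGEF9, an activator of ROP GTPases, rose by 1.71 (limma adjusted p = 0.028). With single arrays left out, 0 (without either 24 h array) to 5 (without either 48 h array) of the 61 were lower, and over all alternatives the adjusted p was 0.0049 to 0.06 for AGP23, 0.012 to 0.087 for MYB101 and 0.018 to 0.09 for ROPGEF9. The list's median here was -0.03, beside 0.25 over all loci, and AGP6, at -3.53, had the sign of AGP23 without passing.

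The mean of the sperm cell genes had a time course of the same order as the mean of the 8 genes, with smaller differences. The mean of the 8 genes was 5.79 in the sterile growing array, 6.56 in the fertile growing array, 9.48 and 9.99 in arrested, 7.84 and 8.07 at 6 h, 8.33 and 8.17 at 24 h, and 7.34 and 6.69 at 48 h. The 11 sperm cell genes had means of 5.57 in sterile growing, 5.45 in fertile growing, 6.51 and 6.87 in arrested, 6.05 and 6.06 at 6 h, 6.06 and 6.39 at 24 h, and 5.83 and 5.59 at 48 h. Of the 11, 4 (DAF1, GEX1, DAZ3 and PCR11) fell at each time after removal, beside 13.1% of all loci at 6 h, 11.5% at 24 h and 13.9% at 48 h. The other 7 passed at no time after removal, among them the sperm cell markers MGH3, GEX2 and HAP2. The list's median difference from arrested was -0.46 at 6 h, -0.19 at 24 h and -0.33 at 48 h, so by the median 48 h was not the lowest. DAF1, a target of the sperm cell regulator DUO1, fell by 4.01 at 48 h (limma adjusted p = 0.0007).

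The tapetum list ran the other way. Its 19 genes averaged 8.38 in sterile growing, 11.06 in fertile growing, and 5.45 and 5.66 in arrested inflorescences. They stayed between 5.43 and 5.87 at 6 h and 24 h, and reached 9.54 and 9.52 at 48 h. At 48 h 18 of 19 rose (12.5% of loci), and LTP12, a lipid transfer protein of the tapetum, rose by 6.38 (limma adjusted p = 0.00018). At 6 h 1 of 19 had fallen by limma (DRL1), where 13.1% of loci fell. At that time 0 had risen, also at an unadjusted p under 0.05, where 8.7% of loci rose by limma. The 8 genes already lay below arrested at 6 h, but they were chosen for their decline, and the difference in timing was not tested. In sterile growing against fertile growing inflorescences 6 of 19 fell (0.514% of loci), LTP12 by 8.03. The 11 seed storage genes averaged 5.23 in sterile growing, 6.21 in fertile growing, and 4.74 and 5.12 in arrested inflorescences, and 7 of 11 rose in fertile growing over arrested (6.02% of loci). What part the tapetum and seed values have in the values of the 8 genes was not tested.

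**Figure D4:**
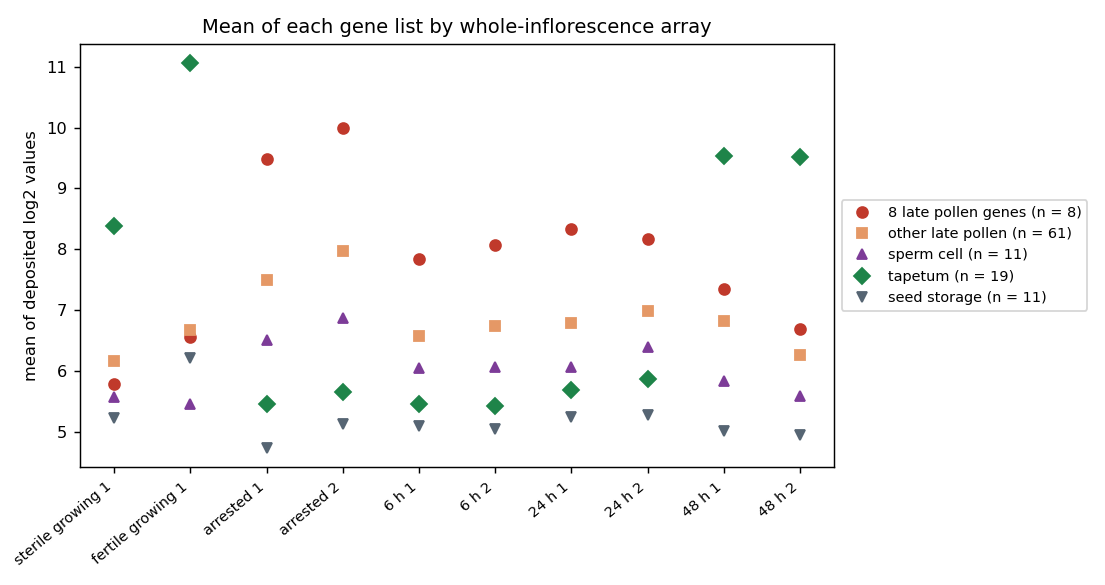
Mean deposited log2 value (vertical axis) of the 8 late pollen genes and of 4 other gene lists on each inflorescence array (horizontal axis). The 8 genes are highest on the arrested arrays, where the tapetum mean lies at 5.45 and 5.66, and the tapetum mean is 9.54 and 9.52 at 48 h.

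Among paralogs of the 8 genes, the PRK family had the highest share lower at 48 h, 4 of 5 (13.9% of loci). These 5 PRK genes, and STP2, STP6 and STP9, were also in the list of 61, so they are not a separate result. Of 10 other arabinogalactan genes, 3 rose at 24 h, where 10.5% of loci rose (AGP1, AGP7 and AGP18), and 7 did not pass by limma. At 48 h 2 rose (AGP1 and AGP18), where 12.5% of loci rose. AGP5 fell at 48 h, at -0.74 (limma adjusted p = 0.019). AGP23 and AGP40, counted in the list of 61 and not here, were at -1.86 and -0.94 at 48 h, and AGP40 did not pass. AGP18 was 6.34 and 6.50 in arrested inflorescences, 8.32 and 8.55 at 6 h, 8.14 and 8.58 at 24 h, and 8.28 and 8.57 at 48 h, the reverse of AGP6 and without the further change at 48 h. Of 9 other sugar transporters, STP13 and STP7 fell at 48 h, and STP2 rose in the fit of all arrays but not in the alternatives named above. STP13, a hexose transporter induced by stress and pathogens, was 5.34 in sterile growing, 7.08 in fertile growing, 9.07 and 9.54 in arrested, and 6.26 and 6.35 at 48 h. Unlike STP11 it declined at each time, with differences from arrested of -1.07 at 6 h, -2.50 at 24 h and -3.00 at 48 h (limma adjusted p = 0.00021 at 48 h).

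Of 5 other CrRLK1L kinases, ERU fell at 24 h and 48 h and FER, the broadly expressed relative of ANX1 and ANX2, fell at 24 h by 0.98 ± 0.29 (limma adjusted p = 0.046). THE1, HERK1 and HERK2 did not pass at any time. The pollen receptor kinases resembled PRK2 more: PRK4, PRK5 and PRK6 fell at all 3 times, PRK1 fell at 48 h, and PRK3 did not pass. PRK4 was 8.46 and 8.70 in arrested inflorescences and 5.52 and 5.13 at 48 h. Of 3 other alpha tubulins with values, TUA4 rose at all 3 times, by 1.36 ± 0.21 at 48 h (limma adjusted p = 0.0031), and TUA2 and TUA6 did not pass. TUA3 and TUA5 had no values. Of the 4 measured, only TUA1, which was chosen for its decline, lay lower after fruit removal.

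**Figure D5:**
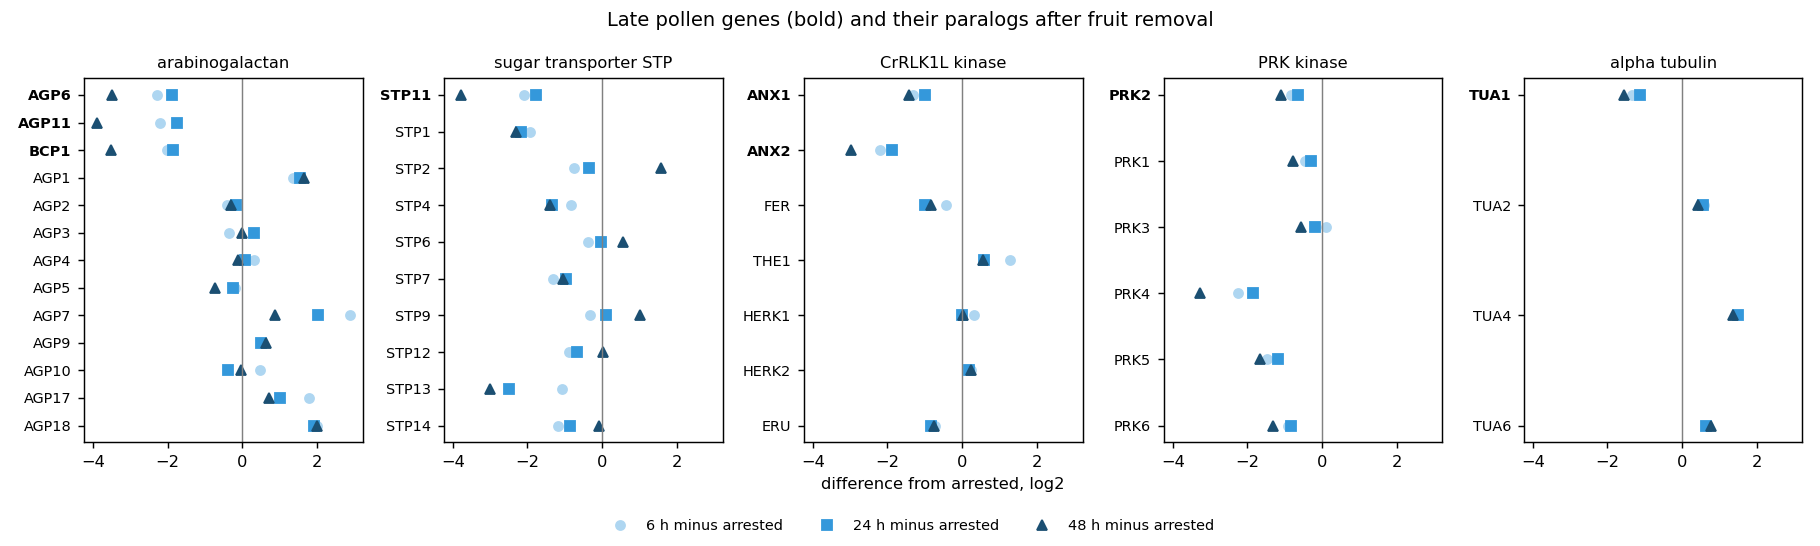
Difference from arrested (horizontal axis, log2) at 6 h, 24 h and 48 h after fruit removal for the 8 late pollen genes (bold) and their paralogs, 1 panel per protein family. All 8 genes lie left of 0 at each time, while AGP18 and TUA4 lie right of 0 at each time.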

How the data were processed

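The deposited series table holds 1 value per locus and array. The values were read as log2 values as deposited by the authors: the labels do not state the scale, which was inferred from the highest value of 14.13. How they were normalized is not stated there either, and no step was added. Per the labels' protocols, inflorescence RNA was labelled with a 3' in vitro transcription kit, and apex RNA was amplified before labelling. From 21253 value lines, 58 control lines were removed. Names came from the RefSeq gene table of TAIR10.1, which matched 21097 loci and all 8 genes. Detection calls were not used.

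The 10 inflorescence arrays were fitted with limma 3.58.1 in R 4.3.3, with 1 mean per group and p-values adjusted by Benjamini-Hochberg over 21195 loci (two-sided, called at adjusted p under 0.05). The fit was tested on simulated data. The 8 genes and all lists were chosen with earlier results of these data known. List genes without a row or with another name in the table were left out. Named genes were the 8, in each list up to 4 genes with the lowest p plus those making up small counts, the listed paralogs, and the 10 loci most alike (range of at least 2). Other genes were named after their values were seen. The number of arrays limits the precision. Alternatives were quantile normalization, median centring, a filter on low values, an intensity trend, a block for the title code, and leaving out each replicated array in turn. Only the arrested group held both codes, so for each contrast the block gave the same fit as leaving out 1 arrested array.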

Additional observations from a re-analysis of the deposited data

Results flagged for a closer look

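In several contrasts the differences in shoot apices and in inflorescences had opposite signs in every array compared, for the genes named here. Each apex group had 1 array, and the difference between the tissues was not tested. For sterile growing minus fertile growing, apices showed 0.17 for AGP6, 0.22 for AGP11, 0.31 for BCP1 and 0.79 for STP11, while inflorescences showed negative differences. That is 4 of 8 genes, near the 43.1% of all loci with opposite signs. The inflorescence intervals of BCP1 (-1.56 to 0.46) and STP11 (-0.90 to 0.68) span 0. For fertile growing minus arrested, apices showed 0.57 for AGP6, 0.16 for BCP1, 0.32 for ANX1 and 1.15 for PRK2 (4 of 8 genes, 26.9% of loci). For sterile growing minus arrested, apices showed 0.74 for AGP6, 0.20 for AGP11, 0.47 for BCP1, 0.64 for STP11, 0.64 for ANX1, 0.04 for ANX2 and 1.20 for PRK2 (7 of 8 genes, 26.2% of loci). For 48 h after fruit removal minus arrested, apices showed 0.65 for AGP6, 0.21 for AGP11, 0.16 for BCP1, 0.24 for ANX1, 0.17 for ANX2 and 1.30 for PRK2 (6 of 8 genes, 17.1% of loci). The apex differences other than those of PRK2 were all under 1. Some apex values were low: AGP6 lay above 12.5% to 25.4% of loci on its array and ANX2 above 2.56% to 3.19%. BCP1 lay higher, above 50.0% to 57.7%. With 1 array per apex group, no direction is drawn for the genes in apices.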

How the results depend on the processing

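No paired analysis was possible because the numbers in the sample titles are not shared between groups. The number of loci called was 142 for sterile growing minus fertile growing, 858 with a block for the title code (r or g), and 42 to 858 when arrays were left out in turn. It was 956 to 5787 at 6 h (4622 with all arrays), 1786 to 5720 at 24 h (4658), 3142 to 6555 at 48 h (5596), 1921 to 4383 for fertile growing (2822) and 3861 to 7431 for sterile growing (5595), each minus arrested. Among the 8 genes, 0 to 1 were called in sterile growing minus fertile growing, the 1 being AGP6 without either 48 h array. Of the 61 other pollen genes, those lower numbered 0 to 5 in sterile growing minus fertile growing (2), 13 to 34 at 6 h (32) and 14 to 31 at 24 h (27). At 6 h the lowest counts, 13 and 17, came without 6 h replicate 1 and without 6 h replicate 2, and at 24 h 16 and 14 without the 24 h replicates. The share of calls that were higher at 6 h was 39.9%, and 54.3% after quantile normalization. Of the 10 most alike loci, 4 were shared over all 14 arrays and 2 by Spearman correlation.

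Signs changed for ANX1 in sterile growing minus fertile growing (-0.21 quantile, -0.08 median centring). At 24 h minus arrested, STP9 (0.10) became -0.09 (quantile) and -0.13 (code block), and leaving out single arrays gave -0.23 to 0.42 for STP9, -0.25 to 0.18 for STP6 and -0.74 to 0.07 for STP2. At 48 h, leaving out single arrays gave -1.42 to 2.50 for HA6, -0.52 to 2.05 for HA9, -0.49 to 1.59 for STP6 and -0.18 to 2.19 for STP9, the lowest without 48 h replicate 1 and the highest without 48 h replicate 2. For sterile growing minus arrested, STP9 (0.01) became -0.24 (quantile), -0.11 (median centring) and -0.21 to 0.23 without single arrays. The causes were not tested. None of the 8 genes changed sign against arrested under these alternatives. The filter on low values left out ANX1. With 1 or 2 arrays per group, differences near the replicate spread are not resolved.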
